A study of Mus musculus with 16 samples.

Results

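The circadian clock genes described here are Arntl, Clock, Per1, Per2, Per3, Cry1, Cry2, Nr1d1, Nr1d2 and Dbp, 10 of the 24421 genes counted in the study, chosen by their symbols. Epithelium was released with EDTA from the jejunum and the ileum of 4 mice at P6 (postnatal day 6, before weaning) and 4 mice at P36 (after weaning), and its RNA was sequenced in bulk, which gave 16 libraries in 4 groups. All mice were wild-type C57BL6/J, untreated, 2 females and 2 males at each age, and both regions came from each mouse, so that replicate n of the jejunum and replicate n of the ileum at 1 age are the same animal. P6 pups were killed by decapitation and P36 mice with carbon dioxide, and the animals lived under a daily light and dark cycle with free access to food. The hour of collection is not given in the sources used here and may differ between ages or between mice. Different mice were sampled at each age, so age, hour of collection, milk or solid diet and manner of killing cannot be told apart in any comparison of the ages. This includes the comparison of the regional contrasts between ages. The 2 regions of 1 mouse share these conditions, and no rhythm or phase can be read from these libraries. The P6 mouse labels carry 2 stems, 1 for mice 1 and 3 and the other for mice 2 and 4, and what a stem stands for is not given in the sources used here.

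All 10 genes passed the filter on low counts and were tested among 13429 genes. Library totals ranged from 12159237 to 25947276 counts, and levels are given as CPM (counts scaled to a common library size, with TMM factors). Levels of different genes are compared as CPM per kilobase of exon. In bulk epithelium, fewer cells of a type and less RNA per cell cannot be told apart. Markers of epithelium were present throughout, with 6 genes summing to between 3846 and 15910 CPM in each library. 3 ileal libraries stood apart from their groups. P6 ileum replicate 2 held 190.6 CPM over 4 smooth muscle genes, against 1.03 to 2.75 CPM in the other P6 ileum libraries, and 223.6 CPM over 4 fibroblast genes, against 17.0 to 37.8. P6 ileum replicate 4 held 752 CPM of Vil1, the villin of the enterocyte brush border, against 1444 to 1546 in the others of its group. Over the 6 epithelium genes it held 3846 CPM, against 5795 to 6208. Over 5 crypt and cycling cell genes it held 678 CPM, against 291 to 441. P36 ileum replicate 3 held 1381 CPM of Vil1, against 2318 to 4487, and 11096 CPM over 4 Paneth cell genes, against 4011 to 6014. Over the 6 epithelium genes it held 11123 CPM, close to the 11453 of replicate 2, with up to 15910 in the group. Vil1 thus does not stand for that list there. Over the 5 crypt and cycling cell genes it held 1495 CPM, against 695 to 1193. For the 10 genes, some results that rest on these libraries are given with and without them, and others only with them. Results of other genes are given with all libraries.

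Markers of other cell types differed with age in the same libraries. Over 4 Paneth cell genes the sum was 16.2 to 27.0 CPM in the P6 jejunum and 33.5 to 70.4 CPM in the P6 ileum, against 3177 to 6224 and 4011 to 11096 CPM at P36, and over 4 goblet cell genes it was 1626 to 2224 and 1723 to 3915 CPM, against 7188 to 8463 and 8125 to 17073 CPM. The 4 genes of each list passed as higher at P36 in both regions. Over 5 crypt and cycling cell genes the sum was 517 to 667 CPM in the P6 jejunum and 291 to 678 CPM in the P6 ileum. At P36 it was 851 to 1070 and 695 to 1495 CPM. Of these 5 genes, 2 were higher and 1 was lower at P36 in the jejunum, and 3 were higher and 1 was lower in the ileum. All 3 B and plasma cell genes passed as higher in both regions (0.044 to 0.19 and 0.87 to 1.47 CPM in sum at P6, 3.57 to 60.5 and 4.98 to 38.6 CPM at P36), and of the 3 T cell genes that were tested 3 did so in the jejunum and 0 in the ileum (in the jejunum 0.79 to 2.59 CPM over 4 genes at P6, 2.43 to 22.2 CPM at P36). Over 4 fibroblast genes the jejunum held 5.17 to 15.2 CPM at P6 and 5.94 to 32.9 CPM at P36, with 1 of the 4 lower, and the ileum 3.93 to 11.2 CPM at P36, with 4 of the 4 lower. The sum over 3 myeloid genes and the pan-leukocyte gene Ptprc was 417.7 to 500.5 and 165.8 to 343.0 CPM at P6, nearly all of it Csf1r, against 22.2 to 51.5 and 33.1 to 65.3 CPM at P36. Itgam ran the other way, with 0.92 to 1.84 and 2.17 to 4.86 CPM at P6 and 18.3 to 21.9 and 28.8 to 51.5 CPM at P36. Of the 3 genes of this list that were tested, 2 were higher and 1 was lower at P36 in the jejunum. In the ileum 1 was higher and 1 was lower, so the sum does not stand for the list. None of the genes of these lists was at 0 in all libraries of a group. Between regions at P36, 3 of the 3 enteroendocrine genes and 2 of the 3 T cell genes were higher in the jejunum. The part of these cell types in the clock gene results was not tested.

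The molecular clock is a feedback loop. BMAL1, the product of Arntl, pairs with CLOCK on E-box sequences and switches on the Per and Cry genes, whose products return to the nucleus and hold BMAL1 and CLOCK in check. In a second loop the same pair drives Nr1d1 and Nr1d2, which encode the nuclear receptors REV-ERB alpha and beta, and these repress Arntl through elements that they share with the ROR receptors. Dbp encodes an activator of D-box sequences, and NFIL3 represses through the same sequences. In an adult intestine on a light cycle the loop runs in epithelial cells and is set in part by the time of feeding, so that the level of a clock gene depends on the hour at which the tissue is taken.

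The sequences before the start of transcription show where such elements lie. RefSeq promoter windows (build GRCm38.p6, 250 bases before each start and 50 after) were at hand for 9 of the 10 genes, 13 windows in all, and Per2 had none. Both strands were searched for 6 motifs. The E-box CACGTG was found for 2 of the 9 genes, Per1 and Cry1, in 2 of the 13 windows, and in 7.15% of all 32851 windows. The related sequence CACGTT was found for Cry1, Cry2 and Nr1d1, in 3 of the 13, and in 4.685% of all windows. The D-box TTATGTAA was found for Per3, as 2 copies in 1 of the 13, and in 0.938% of all windows. The ROR element core TAGGTCA was found for Arntl, in 1 of the 13, and in 2.606% of all windows. The palindromic D-box TTACGTAA (0.119% of all windows) and the cAMP element TGACGTCA (1.79%) were in none of the 13. The 250 bases before the start are shown for genes with a match, chosen as an activator target from each arm of the loop, with 30 bases of the first exon for Arntl, 5′ to 3′ on the strand of the gene. Capitals mark the motif, and AACGTG is CACGTT read on the opposite strand. Matches are letters in a window and were not tested as binding sites.
Per1, chr11:69098699-69098948, plus strand: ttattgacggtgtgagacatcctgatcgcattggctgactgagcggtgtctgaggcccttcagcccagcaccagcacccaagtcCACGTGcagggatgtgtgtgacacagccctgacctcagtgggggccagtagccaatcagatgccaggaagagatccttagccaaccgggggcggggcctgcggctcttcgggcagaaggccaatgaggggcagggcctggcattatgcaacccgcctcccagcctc
Per3, chr4:151044666-151044915, minus strand: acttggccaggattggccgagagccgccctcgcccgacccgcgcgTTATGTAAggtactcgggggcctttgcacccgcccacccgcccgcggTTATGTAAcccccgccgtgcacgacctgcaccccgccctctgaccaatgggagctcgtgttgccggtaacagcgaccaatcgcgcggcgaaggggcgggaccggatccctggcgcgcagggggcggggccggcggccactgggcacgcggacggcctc
Cry1, chr10:85185055-85185304, minus strand: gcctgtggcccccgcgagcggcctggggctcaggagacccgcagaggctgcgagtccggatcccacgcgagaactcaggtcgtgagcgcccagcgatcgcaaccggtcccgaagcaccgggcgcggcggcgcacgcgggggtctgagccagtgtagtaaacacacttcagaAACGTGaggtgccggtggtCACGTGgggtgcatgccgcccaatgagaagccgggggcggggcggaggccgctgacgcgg
Nr1d1, chr11:98775378-98775627, minus strand: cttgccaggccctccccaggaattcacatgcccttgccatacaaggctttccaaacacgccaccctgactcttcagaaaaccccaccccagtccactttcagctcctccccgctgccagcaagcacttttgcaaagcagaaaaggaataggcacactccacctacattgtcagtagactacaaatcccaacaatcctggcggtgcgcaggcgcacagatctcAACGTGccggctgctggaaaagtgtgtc
Arntl, chr7:113207531-113207560, plus strand: aggcagaaagTAGGTCAgggacggaggtgc

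The first question was which clock genes changed between P6 and P36. In the jejunum 9 of the 10 genes passed the test, 6 higher and 3 lower at P36, where 51.6% of all tested genes passed (24.7% higher and 26.9% lower). In the ileum 7 of the 10 passed, 3 higher and 4 lower, where 55.7% of all genes passed (25.5% higher and 30.1% lower). Tests are edgeR's quasi-likelihood test with Benjamini-Hochberg adjustment over the 13429 genes, and passing means an adjusted p below 0.05. The libraries of the 2 ages did not overlap for 10 of the 10 genes in the jejunum (63.8% of all genes) and for 7 in the ileum (44.4%). The median absolute log2 fold change of the 10 genes was 1.54 in the jejunum and 1.81 in the ileum, beside 0.63 and 0.70 over all tested genes. With the study's further requirement of an absolute log2 fold change above 2, 4 of the 10 genes passed in the jejunum and 2 in the ileum, where 16.4% of all genes did so in each region. Since 55.7% of all genes in the ileum passed at the lower threshold, the number of clock genes that passed there was not far from the share of genes at large, and the size and the direction of the single changes carry the description that follows.

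**Figure D1:**
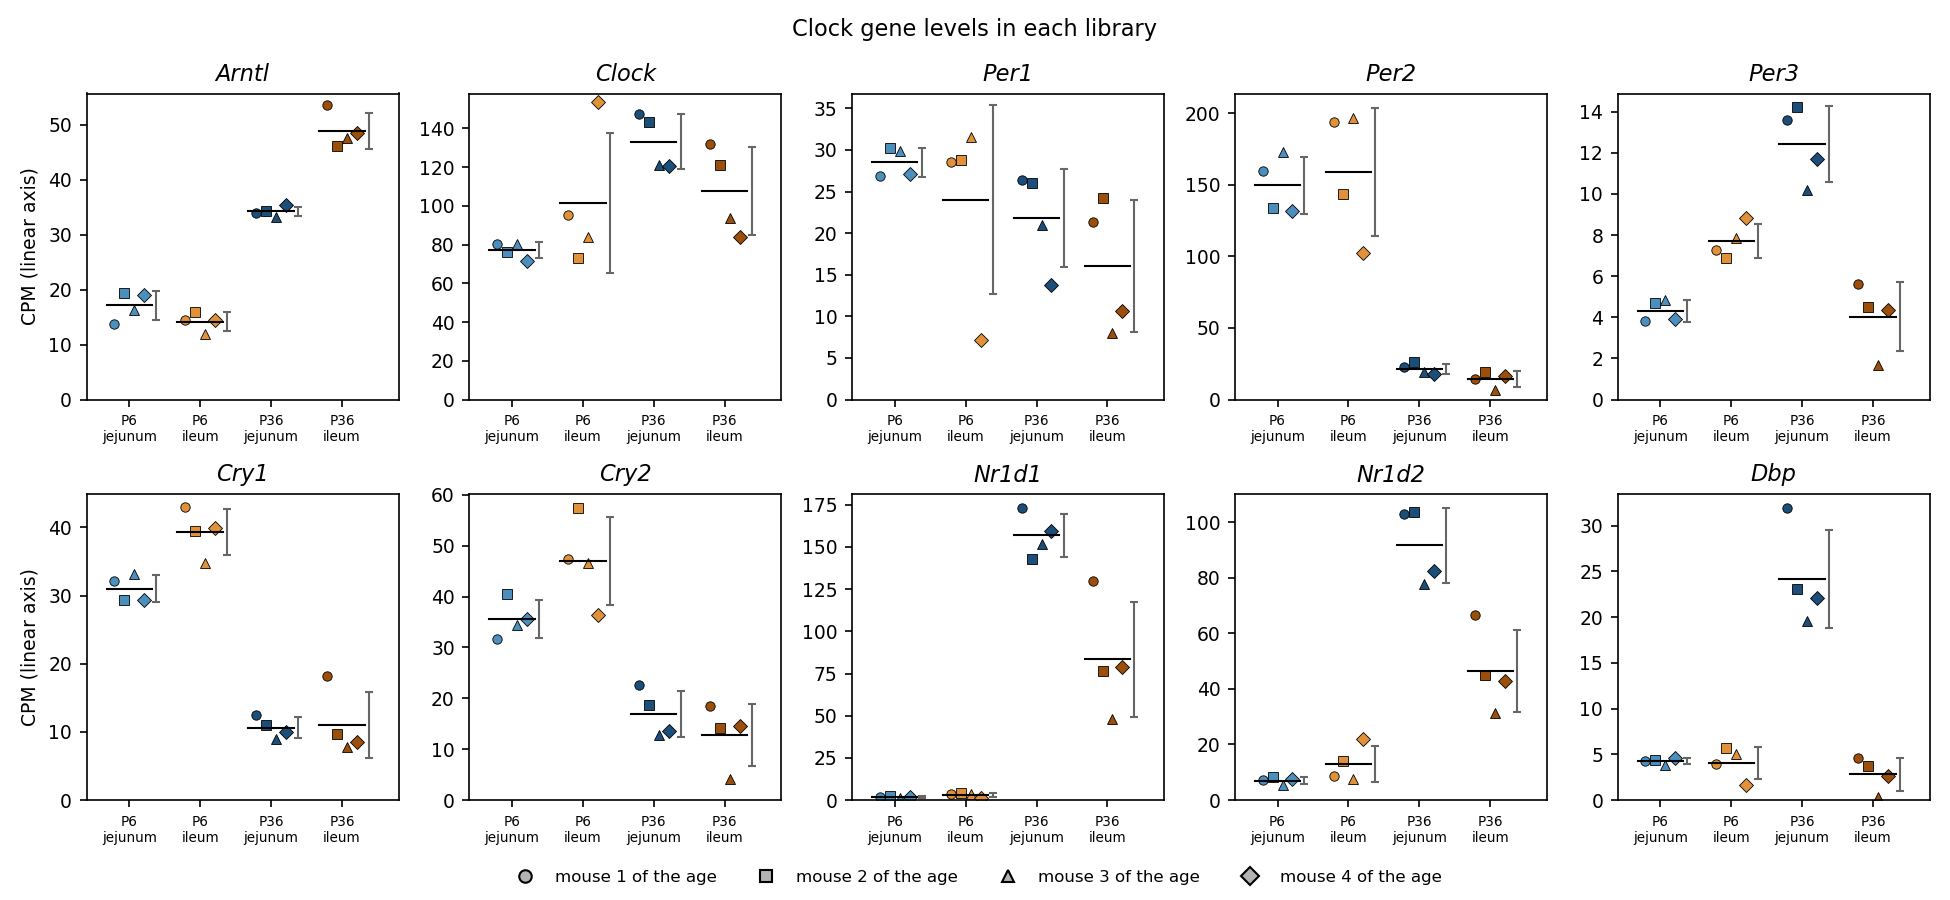
Level of each clock gene in every library, in CPM on a linear axis that starts at 0 with its own scale in each panel. Points are libraries, with 1 marker shape for each mouse of an age, black lines are means of 4 libraries and grey bars are SD; Nr1d1 and Nr1d2 sit near the bottom at P6 and Per2 near the bottom at P36.

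Arntl (mm10, chr7:113207465-113314126, plus strand) encodes BMAL1, the activator that no other clock gene replaces in the mouse. Its level was 13.7, 19.4, 16.3 and 19.0 CPM in the P6 jejunum and 34.0, 34.2, 33.3 and 35.3 CPM in the P36 jejunum. Ileal levels were 14.5, 15.9, 11.9 and 14.4 CPM at P6 and 53.6, 46.0, 47.5 and 48.4 CPM at P36. The ages did not overlap in either region, and the 4 P36 jejunum libraries lay between 33.3 and 35.3 CPM. Arntl rose 2.00-fold in the jejunum, by 1.00 ± 0.13 (SE) in log2 units (adjusted p = 8.86e-06), and 3.45-fold in the ileum (1.79 ± 0.13, adjusted p = 1.85e-08).

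Clock (chr5:76209868-76304792, minus strand) encodes the partner of BMAL1. In the jejunum it was 80.4, 76.3, 80.1 and 71.5 CPM at P6 and 147.3, 143.3, 121.2 and 120.4 CPM at P36, without overlap, a rise of 1.73-fold (log2 fold change 0.79 ± 0.20 SE, adjusted p = 0.00409). In the ileum the libraries of the 2 ages overlapped: 95.5, 72.8, 83.8 and 153.5 CPM at P6 and 131.9, 121.1, 93.8 and 83.7 CPM at P36. The ileal difference did not pass the test (0.09 ± 0.20, 95% interval -0.35 to 0.53, adjusted p = 0.741). The highest P6 value belongs to replicate 4, which stood apart, and without that library the log2 fold change was 0.36 and passed (adjusted p = 0.047). It passed in that 1 of 24 fits that left out a library or a mouse, was -0.05 in the lowest of them, and was 0.33 ± 0.17 without the 3 libraries that stood apart, which did not pass (adjusted p = 0.113).

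The Per genes encode the repressor proteins that set the length of the loop, and the 3 of them did not change alike. Per2 (chr1:91415982-91459328, minus strand) was 159.6, 134.1, 173.0 and 131.8 CPM in the P6 jejunum and 22.7, 26.1, 19.0 and 18.0 CPM in the P36 jejunum. Ileal levels were 193.6, 143.9, 196.5 and 102.5 CPM at P6 and 14.0, 19.5, 6.37 and 16.3 CPM at P36. Every P6 library was above every P36 library. Per2 was 6.98-fold lower at P36 in the jejunum and 11.4-fold lower in the ileum, with log2 fold changes of -2.80 ± 0.29 SE (adjusted p = 7.43e-07) and -3.51 ± 0.30 (adjusted p = 9.24e-08). It was the member with the largest fall in both regions.

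Per3 (chr4:151003655-151044665, minus strand) moved in opposite directions in the 2 regions. In the jejunum it was 3.80, 4.68, 4.83 and 3.93 CPM at P6 and 13.6, 14.2, 10.2 and 11.7 CPM at P36. Its ileal levels were 7.26, 6.89, 7.86 and 8.83 CPM at P6 and 5.64, 4.48, 1.67 and 4.35 CPM at P36. Neither pair of groups overlapped. Per3 rose 2.88-fold in the jejunum, by 1.53 ± 0.27 (SE) in log2 units (adjusted p = 0.000183), and was 1.92-fold lower at P36 in the ileum, by -0.94 ± 0.27 (adjusted p = 0.00748), and the ileal call was lost when only the 8 ileal libraries were fitted (-0.93).

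Per1 (chr11:69098956-69109957, plus strand), which also responds within the hour to hormones and feeding, passed in neither region when all libraries were fitted. In the jejunum it was 26.8, 30.3, 29.8 and 27.1 CPM at P6 and 26.4, 26.0, 21.0 and 13.8 CPM at P36. In the ileum it was 28.6, 28.8, 31.6 and 7.11 CPM at P6 and 21.3, 24.2, 8.00 and 10.6 CPM at P36. The low P6 value is replicate 4, the library low in Vil1, and the other 3 P6 libraries lay above all 4 of P36. The log2 fold change was -0.39 ± 0.40 SE in the jejunum (95% interval -1.25 to 0.47, adjusted p = 0.44) and -0.58 ± 0.40 in the ileum (-1.45 to 0.29, adjusted p = 0.228). Without P6 ileum replicate 4 the ileal value was -0.88 and passed (adjusted p = 0.0205), and without the 3 libraries that stood apart it was -0.67 ± 0.30 and did not (adjusted p = 0.0711).

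The Cry genes encode the other part of the repressor complex, and both fell with age in both regions. Cry1 (chr10:85131700-85185054, minus strand) was 32.2, 29.3, 33.2 and 29.3 CPM in the P6 jejunum and 12.5, 11.0, 8.98 and 9.97 CPM in the P36 jejunum. Ileal Cry1 was 43.0, 39.5, 34.8 and 39.9 CPM at P6 and 18.2, 9.64, 7.80 and 8.55 CPM at P36. The ages did not overlap. Cry1 was 2.92-fold lower at P36 in the jejunum and 3.56-fold lower in the ileum, with log2 fold changes of -1.55 ± 0.22 SE (adjusted p = 2.26e-05) and -1.83 ± 0.22 (adjusted p = 3.98e-06).

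Cry2 (chr2:92403647-92434069, minus strand) was 31.7, 40.6, 34.5 and 35.7 CPM in the P6 jejunum and 22.5, 18.8, 12.9 and 13.6 CPM in the P36 jejunum. In the ileum it was 47.4, 57.5, 46.7 and 36.5 CPM at P6 and 18.6, 14.1, 4.21 and 14.5 CPM at P36, the lowest value being replicate 3, the library rich in Paneth cell genes. The ages did not overlap in either region. Its fold changes were 2.10 and 3.67 towards P6, or -1.07 ± 0.32 SE in log2 units in the jejunum (adjusted p = 0.0101) and -1.88 ± 0.33 in the ileum (adjusted p = 0.000154). Without P36 jejunum replicate 3 the jejunal value was -0.88 and missed the threshold (adjusted p = 0.0516). Exons of Cry2 share 149 bases with a transcript on the opposite strand, and the reads were counted by strand.

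Nr1d1 (chr11:98767932-98775377, minus strand), whose product REV-ERB alpha represses Arntl and many metabolic genes, had the largest change of the 10. It was 1.66, 2.14, 1.47 and 2.01 CPM in the P6 jejunum and 172.8, 143.0, 152.0 and 159.8 CPM in the P36 jejunum. Ileal Nr1d1 was 3.41, 4.22, 3.58 and 1.13 CPM at P6 and 130.0, 76.7, 48.2 and 78.6 CPM at P36. The lowest P36 library thus held more than the highest P6 library by a wide margin in both regions. Nr1d1 rose 85.8-fold in the jejunum, by 6.42 ± 0.39 (SE) in log2 units (adjusted p = 1.45e-09), and 26.9-fold in the ileum (4.75 ± 0.36, adjusted p = 2.01e-08). By absolute change the jejunal rise ranked 296 among the 13429 genes tested. P6 libraries held between 23 and 98 counts of Nr1d1 each, so the low group was counted and not empty.

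Nr1d2 (chr14:18204056-18239106, minus strand), the paralogue, rose as well. It was 7.07, 8.21, 5.30 and 7.56 CPM in the P6 jejunum and 102.7, 103.6, 77.6 and 82.4 CPM in the P36 jejunum. Ileal Nr1d2 was 8.64, 13.9, 7.70 and 22.0 CPM at P6 and 66.5, 44.9, 31.5 and 42.9 CPM at P36. The ages did not overlap, although P6 ileum replicate 4 came closest to the P36 range. Nr1d2 rose 13.0-fold in the jejunum, by 3.70 ± 0.32 (SE) in log2 units (adjusted p = 9.69e-08), and 3.55-fold in the ileum (1.83 ± 0.30, adjusted p = 8.16e-05). Without the 3 libraries that stood apart the ileal change was 2.66 ± 0.23 (adjusted p = 6.17e-07).

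Dbp (chr7:45705247-45710203, plus strand), a PAR bZIP transcription factor through which the clock reaches enzymes of metabolism, rose in the jejunum and did not pass in the ileum. It was 4.32, 4.42, 3.83 and 4.64 CPM in the P6 jejunum and 31.9, 23.1, 19.6 and 22.1 CPM in the P36 jejunum. In the ileum it was 3.90, 5.69, 5.04 and 1.67 CPM at P6 and 4.59, 3.69, 0.37 and 2.61 CPM at P36. The jejunal groups were apart and the ileal groups overlapped. The log2 fold change was 2.49 ± 0.48 SE in the jejunum (adjusted p = 0.000445), a rise of 5.61-fold, and -0.55 ± 0.49 in the ileum (95% interval -1.61 to 0.51, adjusted p = 0.353). P36 ileum replicate 3 held 9 counts of Dbp. Exons of Dbp share 539 bases with Sphk2 on the opposite strand, with reads counted by strand.

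**Figure D2:**
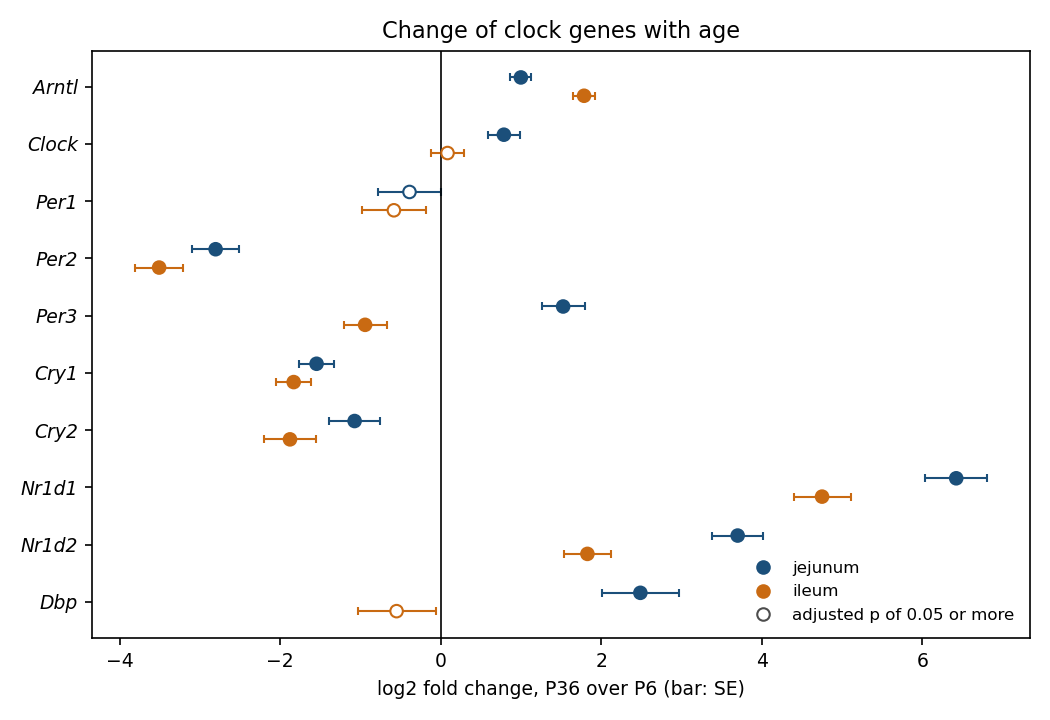
Log2 fold change of each clock gene from P6 to P36 (P36 over P6), in the jejunum (blue) and ileum (orange), with bars of 1 SE from the edgeR fit of 16 libraries. Filled points passed at an adjusted p below 0.05; Nr1d1 rose by 6.42 and 4.75, Per2 fell by 2.80 and 3.51, and Per3 lay on opposite sides of 0.

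The changes reordered the genes within the epithelium. Per kilobase of exon, Per2 had the highest level of the 10 at P6, with 25.6 ± 3.43 CPM per kb (SD, n = 4) in the jejunum and 27.3 ± 7.68 in the ileum, and Nr1d1 the lowest, with 0.66 ± 0.11 and 1.12 ± 0.49. Per3 lay next to Nr1d1, at 0.71 ± 0.087 and 1.27 ± 0.14 CPM per kb, within the spread of both. At P36 Nr1d1 had the highest level in each region, with 56.7 ± 4.57 CPM per kb in the jejunum and 30.1 ± 12.3 in the ileum, and Per2 stood eighth, with 3.67 ± 0.64 and 2.41 ± 0.95. Against all tested genes Nr1d1 moved from the 17.1 percentile at P6 to the 89.2 percentile at P36 in the jejunum, and Per2 from 77.8 to 37.3. Within single libraries, Nr1d1 was below Arntl by 1.66 to 3.60 in log2 CPM per kb in the 8 P6 libraries and above it by 0.09 to 2.42 in the 8 P36 libraries, with the value near 0 in P36 ileum replicate 3.

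The second question was whether the clock genes differed between jejunum and ileum. At P6, 2 of the 10 genes passed, Per3 and Nr1d2, both lower in the jejunum. Of all genes 25.9% passed (14.8% lower in the jejunum). The libraries of the regions did not overlap for 2 of the 10, Per3 and Cry1 (30.1% of all genes). Those of Nr1d2 overlapped, and Cry1 did not pass. At P36, 5 of the 10 passed, where 16.1% of all genes did: Per3, Nr1d1, Nr1d2 and Dbp were higher in the jejunum (8.3% of all genes) and Arntl was lower (7.8%). Above an absolute log2 fold change of 2 were 0 of the 10 at P6 (6.5% of all genes) and 1, Dbp, at P36 (3.6%). The libraries did not overlap for 5 genes at P36 (26.9% of all genes).

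At P36 the jejunum of each mouse can be set against its own ileum. Dbp was higher in the jejunum by 2.77, 2.62, 5.40 and 3.03 on the log2 CPM scale in the 4 mice, the largest value being that of mouse 3, whose ileum library held 9 counts. In the fit Dbp was 8.66-fold higher on the jejunal side, by 3.11 ± 0.50 (SE) in log2 units (adjusted p = 0.000472). Without the 3 libraries that stood apart the value was 2.73 ± 0.22 (adjusted p = 2.05e-06). Per3 was higher in the jejunum by 1.25, 1.64, 2.54 and 1.40 in the 4 mice, with a fitted difference of 1.63 ± 0.27 (adjusted p = 0.000612). Nr1d2 was higher by 0.63, 1.21, 1.30 and 0.94 (fitted 0.98 ± 0.29, adjusted p = 0.029). Nr1d1 was higher by 0.41, 0.90, 1.66 and 1.02 (fitted 0.91 ± 0.30, adjusted p = 0.0483). Arntl ran the other way and was lower in the jejunum by 0.65, 0.43, 0.51 and 0.45 (fitted -0.52 ± 0.13, adjusted p = 0.0117). Each of these 5 genes had the same sign in 4 of 4 mice.

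The P36 calls were not equally firm. Each library, and each mouse with both its libraries, was left out in turn, 24 fits in all. Dbp and Per3 passed in 24 of the 24 fits, with log2 fold changes between 2.72 and 3.48 and between 1.36 and 1.84. Arntl passed in 20 and lost its call when both libraries of any 1 of the 4 P36 mice were left out, with log2 fold changes between -0.54 and -0.47. Nr1d2 passed in 16 fits (0.83 to 1.20, adjusted p up to 0.161) and Nr1d1 in 5 (0.72 to 1.21, adjusted p up to 0.188). Nr1d1 also missed the threshold with median-of-ratios scaling, with scaling by library totals and without the filter on low counts, so its regional difference lay at the edge of the test. Without the 3 libraries that stood apart Nr1d1 differed by 0.73 ± 0.16 and passed (adjusted p = 0.00466).

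Per1, Per2 and Clock were higher in the jejunum in 4 of 4 P36 mice without passing. Their fitted differences were 0.44 ± 0.40 (adjusted p = 0.521), 0.62 ± 0.28 (adjusted p = 0.154) and 0.31 ± 0.20 (adjusted p = 0.354). Cry1 differed by -0.06 ± 0.22 (95% interval -0.53 to 0.41, adjusted p = 0.9) and Cry2 by 0.40 ± 0.32 (-0.29 to 1.10, adjusted p = 0.451).

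At P6 the direction was the reverse for Per3 and Nr1d2. Per3 was lower in the jejunum by 0.92, 0.55, 0.69 and 1.15 on the log2 scale in the 4 mice (fitted -0.84 ± 0.27 SE, adjusted p = 0.0295). Nr1d2 was lower by 0.29, 0.75, 0.53 and 1.53 (fitted -0.89 ± 0.30, adjusted p = 0.0369). Neither call was firm. Per3 passed in 16 of the 24 fits with a library or mouse left out (-0.93 to -0.72, adjusted p up to 0.108) and lost its call without P6 jejunum replicate 1, 2 or 4, without any 1 of the 4 P6 mice and without P36 mouse 4. Nr1d2 passed in 14 (-1.09 to -0.52, adjusted p up to 0.164) and lost its call without any 1 of the 4 P6 jejunum libraries, without P6 ileum replicate 2 or 4, without mouse 2 or 4 of either age, and when only the 8 P6 libraries were fitted. Without the 3 libraries that stood apart the difference was -0.84 ± 0.18 for Per3 (adjusted p = 0.00296) and -0.24 ± 0.21 for Nr1d2 (adjusted p = 0.424). Nr1d1 was lower in the jejunum in 3 of 4 P6 mice and higher in mouse 4 (fitted -0.76 ± 0.34, adjusted p = 0.118), and its difference passed without P6 ileum replicate 4 (-1.03, adjusted p = 0.0122) and without the 3 libraries (-0.96 ± 0.24, adjusted p = 0.00896). Cry1 and Cry2 were lower in the jejunum in 4 of 4 P6 mice and did not pass (fitted -0.34 ± 0.21, adjusted p = 0.255, and -0.40 ± 0.31, adjusted p = 0.375).

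**Figure D3:**
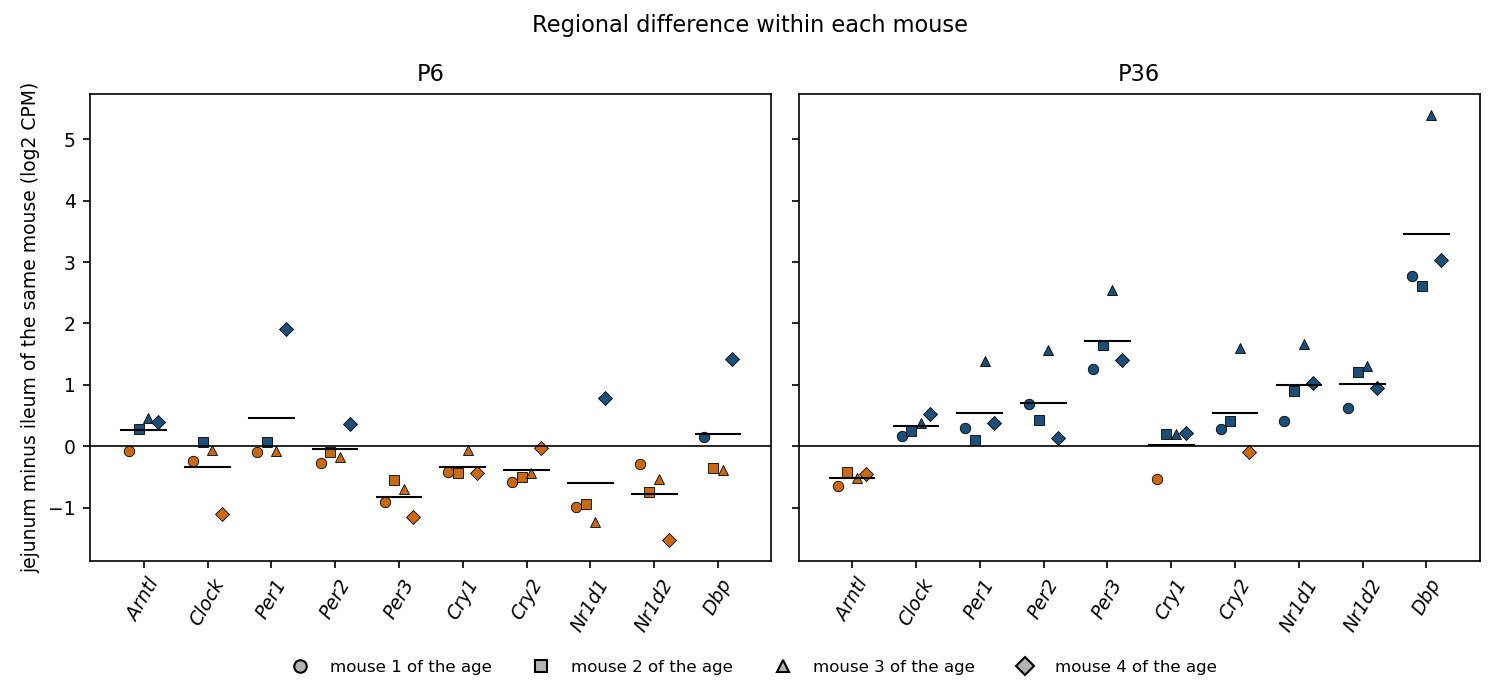
Difference of each clock gene between jejunum and ileum of the same mouse, on the log2 CPM scale, at P6 (left) and P36 (right). Points are mice, blue above 0 and orange below, and black lines are means of 4 mice; Dbp, Per3, Nr1d1 and Nr1d2 lay above 0 in 4 of 4 mice at P36, where Arntl lay below 0 in 4 of 4.

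The difference between the regional contrasts was tested itself. The jejunum-over-ileum log2 fold change at P6 minus that at P36 passed for 5 of the 10 genes, where 8.69% of all genes passed, 1 positive (3.68%) and 4 negative (5.01%), with 2 of the 10, Per3 and Dbp, also past an absolute value of 2 (3.37% of all genes). Arntl had a positive value (0.79 ± 0.18 SE, adjusted p = 0.013): it lay 0.27 ± 0.13 higher in the jejunum at P6, a difference that did not pass, and 0.52 lower at P36. Dbp had -3.04 ± 0.68 (adjusted p = 0.0105), Per3 -2.47 ± 0.38 (adjusted p = 0.000708), Nr1d2 -1.87 ± 0.41 (adjusted p = 0.0096) and Nr1d1 -1.67 ± 0.45 (adjusted p = 0.032). Put by age, these 4 genes rose between P6 and P36 in the jejunum by more than in the ileum, where Per3 fell and Dbp did not pass. Arntl gained less in the jejunum than in the ileum. Arntl, Dbp, Per3 and Nr1d2 passed in 24 of the 24 fits with a library or mouse left out, and Nr1d1 in 9 (-1.99 to -1.47, adjusted p up to 0.108). Without the 3 libraries that stood apart the value for Nr1d2 was -1.08 ± 0.27 (adjusted p = 0.0198), and Per2 passed as well (-0.78 ± 0.23, adjusted p = 0.0402, against -0.70 and 0.297 with all libraries). With the P6 mice of 1 label stem alone, Dbp had -3.25 (mice 1 and 3) and -2.83 (mice 2 and 4), the latter with an adjusted p of 0.118. Nr1d1 had -2.06 (adjusted p = 0.0208) and -1.30 (adjusted p = 0.252) in the same order, so it too lost its call with mice 2 and 4.

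The libraries within a group also varied in their clock genes. The median SD of log2 CPM over the 10 genes at P6 was 0.16 (jejunum) and 0.45 (ileum), beside 0.17 and 0.42 over all tested genes, and at P36 it was 0.22 and 0.64, beside 0.16 and 0.29. By these medians the clock genes spread like other genes at P6 and more widely at P36, above all in the ileum. Not all did so, since in the P36 jejunum Arntl, Clock and Nr1d1 had SDs of 0.036, 0.154 and 0.115. P36 ileum replicate 3 was the lowest of its group for Per1, Per2, Per3, Cry1, Cry2, Nr1d1, Nr1d2 and Dbp. Arntl was the steadiest member at P36, with an SD of 0.036 in the jejunum and 0.094 in the ileum, and Dbp the least steady in the ileum, with an SD of 1.52. Without replicate 3 the P36 ileum held 3.63 ± 0.99 CPM of Dbp (SD, n = 3), 4.82 ± 0.71 of Per3 and 15.7 ± 2.48 of Cry2. P6 ileum replicate 4 was the lowest of its group for Per1, Per2, Nr1d1, Cry2 and Dbp and the highest for Clock, Per3 and Nr1d2. Without it the P6 ileum held 29.7 ± 1.66 CPM of Per1 and 3.74 ± 0.43 of Nr1d1 (SD, n = 3). The part of cell makeup, RNA quality or hour of collection in these values was not tested.

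At P36 the 2 female mice held more than the 2 male mice in both regions for 6 of the 10 genes, Clock, Per1, Per3, Cry1, Nr1d2 and Dbp, and the reverse held for 0 of them. Over all tested genes, 6.14% had the females above the males in both regions and 7.95% the reverse. 1 of the 2 males was mouse 3, whose ileum library, P36 ileum replicate 3, stood apart from its group. Per1 was 26.4 and 26.0 CPM in the jejunum and 21.3 and 24.2 CPM in the ileum of the females, against 21.0 and 13.8 CPM and 8.00 and 10.6 CPM in the males. At P6 the females were above the males in both regions for 0 of the 10 genes (1.77% of all genes) and below for 0 (1.42%). Divided by label stem, P6 mice 1 and 3 held more Per2 than mice 2 and 4 in both regions (7.86% of all genes) and less Nr1d2 (9.79%). Jejunum libraries of 1 stem differed by a chi-square per gene of 20.6 and 14.0, against 36.4 to 48.8 across stems. P6 ileum libraries were not divided in this way, with 21.8 and 285.0 within stems and 43.4 to 292.0 across stems. With 2 mice of each sex at an age, this is a description without a test, since the smallest exact p would be far above any threshold, and sex cannot be told apart from the order or hour in which the mice were taken.

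The clock reaches further than these 10 genes, and 38 others were listed by role, of which 36 were tested. In the jejunum 19 of the 36 passed with age, 8 higher and 11 lower, and in the ileum 20, 7 higher and 13 lower, where 51.6% and 55.7% of all genes did. Between regions 7 passed at P6 (25.9% of all genes) and 7 at P36 (16.1%), and 5 passed for the difference between the regional contrasts (8.69%).

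The other D-box activators differed between regions at P36. Hlf, a paralogue of Dbp, was 0.087, 0.18, 0.32 and 0.24 CPM in the P6 jejunum and 4.18, 2.21, 2.07 and 1.65 CPM in the P36 jejunum, while in the ileum it was 3.16, 3.23, 3.42 and 2.55 CPM at P6 and 0, 0.34, 0.16 and 0.16 CPM at P36. The ileum held more at P6 and the jejunum more at P36, without overlap at either age. The log2 fold change with age was 3.60 ± 0.52 SE in the jejunum (adjusted p = 2.97e-05) and -4.18 ± 0.55 in the ileum (adjusted p = 9.8e-06), and the difference between the regional contrasts was -7.78 ± 0.76 (adjusted p = 1.05e-05). Levels of Hlf below 1 CPM rest on few counts, so these folds depend on the prior count of the fit.

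Tef, the third of the PAR bZIP genes, was 76.7, 73.1, 75.6 and 77.0 CPM in the P6 jejunum and 77.4, 80.8, 53.0 and 49.99 CPM in the P36 jejunum. Ileal Tef was 102.0, 105.8, 85.9 and 79.9 CPM at P6 and 36.5, 29.4, 9.76 and 25.0 CPM at P36. The jejunal change did not pass (-0.21 ± 0.28, adjusted p = 0.557) and the ileal one did (-1.89 ± 0.29, adjusted p = 4.5e-05), with a regional difference of 1.38 ± 0.29 at P36 (adjusted p = 0.00357). At P36 Dbp, Hlf and Tef were each higher in the jejunum in 4 of 4 mice.

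Nfil3, the repressor at the same sequences, was higher in the jejunum at P6 and lower there at P36. It was 23.2, 28.2, 26.8 and 29.7 CPM in the P6 jejunum and 7.88, 10.9, 11.9 and 12.1 CPM in the P36 jejunum. Ileal Nfil3 was 16.5, 18.3, 14.4 and 16.7 CPM at P6 and 17.4, 16.4, 30.3 and 19.1 CPM at P36. Nfil3 was 2.52-fold lower at P36 in the jejunum (-1.33 ± 0.20 SE, adjusted p = 3.34e-05) and did not pass in the ileum (0.34 ± 0.19, adjusted p = 0.146). It was higher in the jejunum in 4 of 4 P6 mice (0.71 ± 0.19, adjusted p = 0.0128) and lower in 4 of 4 P36 mice (-0.96 ± 0.20, adjusted p = 0.00312), and the 2 differences differed by 1.67 ± 0.27 (adjusted p = 0.00114).

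Rora, whose product activates at the elements where REV-ERB represses, was lower at P36. Its level was 1.88 to 4.37 CPM in the P6 jejunum and 19.4 to 41.1 CPM in the P6 ileum, and 0.21 to 0.85 CPM in the 8 P36 libraries. The changes with age were -2.98 ± 0.42 SE (adjusted p = 2.26e-05) and -5.47 ± 0.43 (adjusted p = 3.12e-08) in log2 units. Rorb was not tested, with 22 counts or fewer in any group of 4 libraries.

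Among the repressors outside the Per and Cry families, Bhlhe40, whose product DEC1 competes for E-boxes, was 417.3 to 523.7 CPM in the 8 P6 libraries and 46.4 to 68.0 CPM in the 8 P36 libraries. It was 8.79-fold lower at P36 in the jejunum (-3.14 ± 0.14 SE, adjusted p = 9.3e-11) and 7.87-fold lower in the ileum (-2.98 ± 0.14, adjusted p = 1.47e-10), and the regions did not pass at either age (adjusted p = 0.64 at P6 and 0.799 at P36). Usp2, a deubiquitinase that acts on clock proteins, was 1.55 to 7.05 CPM at P6 and 22.2 to 86.1 CPM at P36, a rise of 11.2-fold in the jejunum (3.49 ± 0.31 SE in log2 units, adjusted p = 1.08e-07) and 20.4-fold in the ileum (4.35 ± 0.32, adjusted p = 1.95e-08). Alas1, the first enzyme of haem synthesis, and Nampt, an enzyme of NAD salvage, are rhythmic outputs in adult tissues and both rose. Alas1 changed by 1.27 ± 0.17 and 1.32 ± 0.17 (adjusted p = 1.08e-05 and 7.35e-06) and Nampt by 1.19 ± 0.23 and 0.82 ± 0.23 (adjusted p = 0.000501 and 0.00679) in the jejunum and ileum. Tspo, a mitochondrial outer membrane protein, rose by 1.20 ± 0.42 and 1.86 ± 0.43 (adjusted p = 0.0248 and 0.00161). The ubiquitin ligase genes Btrc and Fbxl21 were lower at P36, by -1.06 ± 0.13 and -2.85 ± 0.35 in the jejunum (adjusted p = 4.94e-06 and 4.27e-06) and by -0.80 ± 0.13 and -1.22 ± 0.33 in the ileum (adjusted p = 7.92e-05 and 0.00529).

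**Figure D4:**
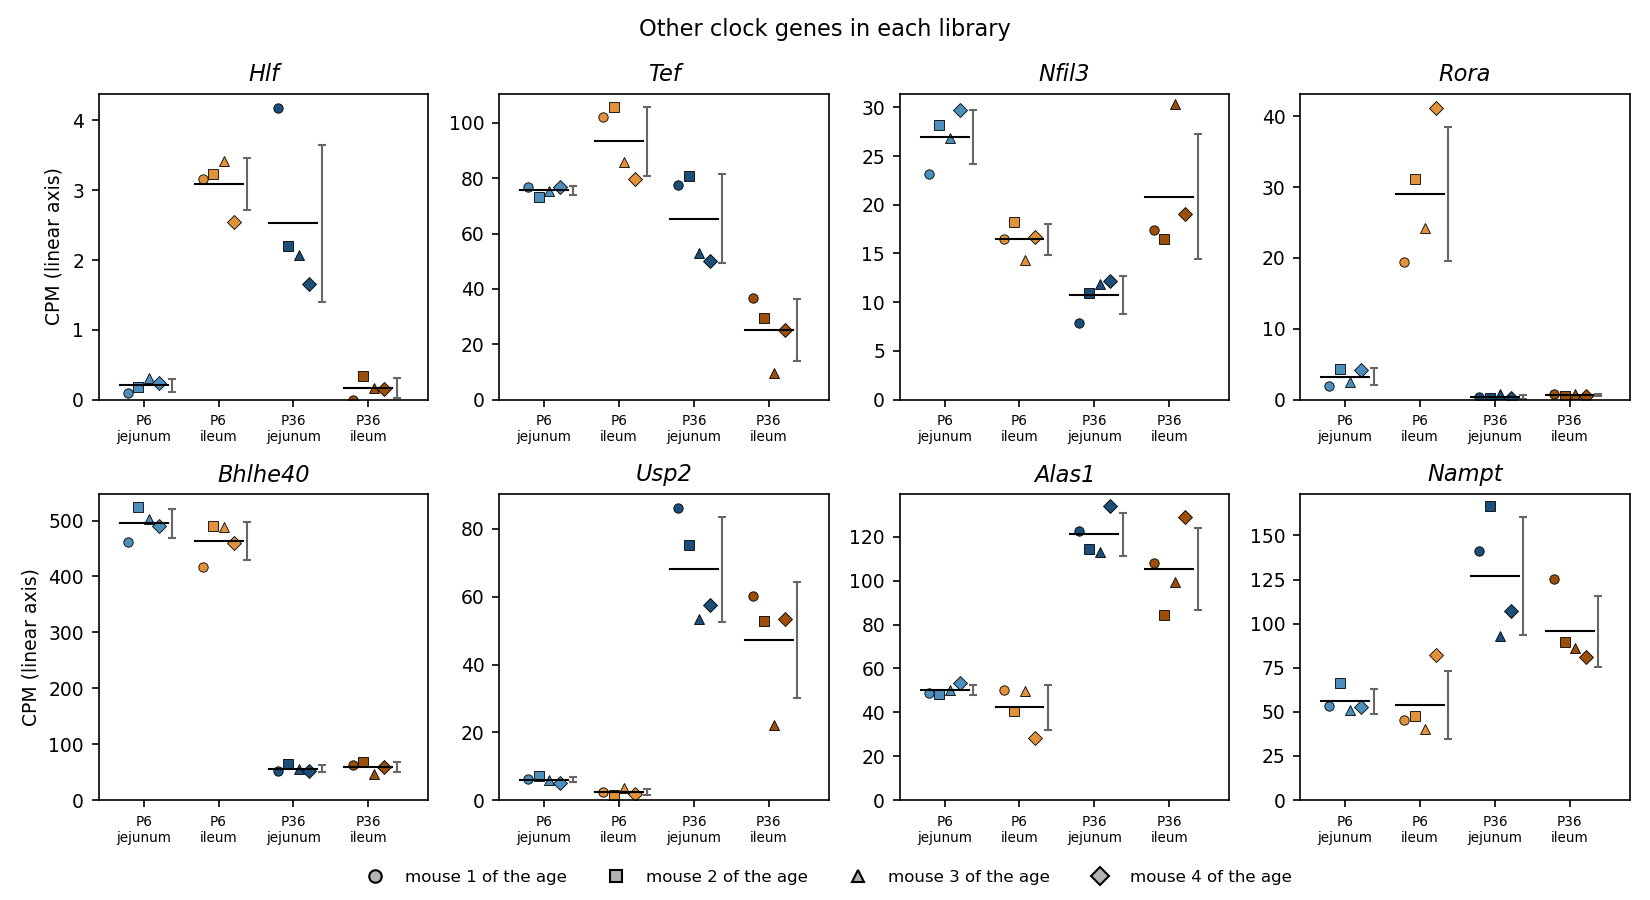
Level of 8 further clock genes in every library, in CPM on linear axes that start at 0. Points are libraries, with 1 marker shape for each mouse of an age, black lines are means of 4 libraries and grey bars are SD; Hlf was high in the P6 ileum and the P36 jejunum, and Rora and Bhlhe40 were low in all 8 P36 libraries.

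Inputs that reset peripheral clocks were listed as well. Of 10 immediate early genes, which respond to stimulation of cells, 2 were higher and 2 lower at P36 in the jejunum. In the ileum 4 were higher and 0 lower. These counts stand beside the shares of all genes that passed, 51.6% and 55.7%. Atf3 and Btg2 rose in both regions, by 1.51 and 1.48 in the jejunum (adjusted p = 9.3e-05 and 7.3e-05) and by 1.70 and 1.88 in the ileum (adjusted p = 2.6e-05 and 6.8e-06). Of 6 tested targets of the glucocorticoid receptor, 2 were higher and 1 was lower in each region, near those shares. Fkbp5 rose from 4.02 to 5.83 CPM in the P6 jejunum to 9.52 to 32.4 CPM at P36 (2.04 ± 0.28, adjusted p = 1.64e-05) and from 3.63 to 4.69 CPM to 46.6 to 69.3 CPM in the ileum (3.90 ± 0.30, adjusted p = 2.87e-08). Klf9 fell by 1.07 (SE 0.18, adjusted p = 0.000106) and 0.68 (SE 0.18, adjusted p = 0.00394), and Tsc22d3 did not pass (0.37 ± 0.24, adjusted p = 0.211, and 0.18 ± 0.24, adjusted p = 0.549). The manner of killing and the length of EDTA treatment differed between the ages, and the part of these inputs in the clock gene values was not tested.

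The genes whose levels varied most like those of Arntl and of Dbp from library to library were found from deviations of log2 CPM from the group mean over the 16 libraries, as a description. For Arntl these were Scamp5, Scn2b and Fam221a, with Pearson's r of 0.83, 0.82 and 0.81, and the genes that varied most oppositely were Prox1, Uxs1 and Folr2, with -0.84, -0.83 and -0.82. For Dbp they were Slc34a3, Sdccag3 and Apoa4, with 0.97, 0.96 and 0.96, and Tyms, Mrpl49 and Hibch, with -0.93 in each case. The 16 points come from 8 mice, share their mice in pairs, and for Dbp include P36 ileum replicate 3, so the values carry no p.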

How the data were processed

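Per the labels and the study's methods, the authors sequenced stranded mRNA libraries of EDTA-released epithelium, trimmed the reads (Trimmomatic 0.38), mapped them on mm10 by STAR (2.5.3 in the submitters' processing notes, another version in the study's methods) and counted read pairs on exons by strand with featureCounts 1.6.3 of Subread. The deposited values are raw counts per gene and library, not normalized. The segment was 2 cm long in the labels and shorter in the methods.

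Counts of the 16 libraries were filtered with filterByExpr and scaled by TMM, and edgeR 4.0.16 (R 4.3.3) gave quasi-likelihood tests from 1 fit of 4 group means over 13429 genes. SE is the log2 fold change divided by the square root of F, and 95% intervals use the residual degrees of freedom. Log2 CPM used a prior count of 2. The procedure was tested on simulated counts. Replicates differed beyond sampling noise, so each was counted as its own sample. Replicate numbers pair the regions because both came from 1 mouse, and deviations from group means correlated within mice (r 0.157 to 0.391, over genes). The means between different mice were -0.106 and -0.101. Deviations sum to 0 in each group, so these means are tied to the values within mice and are no separate comparison. Interval and count precision cover these samples only.

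The genes and lists were chosen with earlier results of these data known. Named beside the 10 genes are those of the other clock lists that changed with age by over 1 in log2 units at an adjusted p under 0.05 (12 at most, by adjusted p; 13 qualified), the input and marker lists, and the nearest genes to Arntl and Dbp. 1 gene named by this rule is not reported here. Alternatives were DESeq2 1.42.0, median-of-ratios scaling, library totals, no filter, a mean CPM of at least 1, separate fits of the 8 libraries of a comparison, a sex term, a robust prior, the mouse as a replicate block (limma 3.58.1) and each library or mouse left out. The settings without 3 libraries and with the P6 mice of 1 label stem were chosen after seeing the data.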

Additional observations from a re-analysis of the deposited data

Results flagged for a closer look

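Per1 in P6 ileum replicate 4 was the only one of 40 groups of 4 libraries (10 genes in 4 groups) with a lone value: its gap to the next library took up 0.878 of the range of the group and exceeds Dixon's 95% critical value for 4 samples. Chance gives such a gap in about 1 group of 20.

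The regional contrast differed between the ages, by the test of the difference itself, for Arntl (0.79 on the log2 scale), Per3 (-2.47), Nr1d1 (-1.67), Nr1d2 (-1.87) and Dbp (-3.04), as given above with errors and p-values.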

How the results depend on the processing

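Of the counts of clock genes that passed, those for age were 8 or 9 in the jejunum and 6 or 7 in the ileum, apart from the requirement of an absolute log2 fold change above 2, which left 4 genes in the jejunum, 2 in the ileum, 0 between regions at P6, 1 between regions at P36, 2 for the difference between the contrasts, and 6 and 5 of the other clock genes with age. Between regions at P6, 5 genes passed with scaling by library totals, which shifts the median of all genes by -0.29 at P6 and -0.14 at P36, and 1 passed when only the 8 libraries of P6 were fitted. With the P6 mice of 1 label stem alone, chosen after seeing the data, 8 genes passed in the jejunum (Cry2 missed, at -0.97 and -1.13), 0 (mice 1 and 3) or 1 (mice 2 and 4) between regions at P6, and 5 or 3 for the difference. With the mouse as a replicate block the counts were 9, 7, 2, 5 and 5, and the block changed no call of the 10 genes. Leaving out 1 library or mouse gave 8 to 9 genes with age in the jejunum, 7 to 9 in the ileum, 0 to 2 between regions at P6, 2 to 5 between regions at P36, 4 to 6 for the difference, and 16 to 23 and 18 to 24 of the other clock genes. The count between regions at P6 was 0 without P6 jejunum replicate 1, 2 or 4, without P6 mouse 2 and without P36 mouse 4. That at P36 was 2 without P36 mouse 2, 3 or 4. The cause was not tested.

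Signs turned only for differences that did not pass. At P6 between regions, library totals gave -0.0146 for Arntl, -0.0413 for Per1 and -0.21 for Dbp, and leaving out the 3 libraries gave -0.10 for Per1 and -0.0791 for Dbp. The replicate block gave 0.0153 for Cry1 between regions at P36. With 1 library or mouse left out, values ranged from -0.0453 to 0.36 for Clock with age in the ileum, from -0.0539 to 0.39 for Per1, -0.25 to 0.013 for Per2 and -0.22 to 0.29 for Dbp between regions at P6, from -0.20 to 0.29 for Cry1 between regions at P36, and from -0.50 to 0.0372 for the Per1 difference between contrasts. With 1 stem alone the value was -0.0459 for Clock with age in the ileum, -0.0836 for Per1, 0.10 for Per2 and -0.13 for Dbp between regions at P6, and 0.22 for the Per1 difference between contrasts. Low counts limit Hlf, Rora at P36 and Dbp in P36 ileum replicate 3, which held 9 counts of it.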
